A study of Mus musculus with 6 samples.

Results

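The proteasome is the large protease that breaks down ubiquitin-tagged proteins in the cytoplasm and nucleus, and its genes were followed here in mouse fibroblasts after knockdown of the SAFB proteins. The genes were taken by symbol: protein-coding genes whose symbols begin with Psma to Psmg and a number, with at least 10 reads over the 6 libraries. Of 50 such genes, 47 had that many reads, out of 19452 genes in the whole data set. Among the 47, Psmc3ip encodes a protein of meiotic recombination that shares only the letters of the name, and it was kept apart. This left 46 of 49 proteasome genes: 7 of the alpha ring, 7 constitutive and 2 induced genes of the beta ring, 6 ATPases, 11 other subunits of the regulatory particle, 5 activators, 1 inhibitor and 7 assembly chaperones.

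The core of the particle is a barrel of stacked rings. Outer rings of alpha subunits form the gate, and inner rings of beta subunits carry the active sites. Protein is fed into the barrel by caps, of which the regulatory particle recognises ubiquitin, removes it, and unfolds the substrate with a ring of ATPases. Other caps, the activators, open the gate without ATP. Dedicated chaperones assemble core and regulatory particle, and interferon-inducible beta subunits can take the place of the constitutive active sites in a form called the immunoproteasome. In mammalian cells the genes for subunits are known to be raised together by the transcription factor NRF1 (gene Nfe2l1) when proteasome activity falls short.

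The cells were mouse Flp-In 3T3 cells, a fibroblast line that carries a recombination site for transgenes. In the SAFB KD group, 3 biological replicates received siRNAs to Safb, Safb2 and Sltm in combination. The control group, also of 3 biological replicates, received control siRNA. Per the methods, siRNAs were given by reverse transfection and again on the following day, and cells were harvested on the third day, so both groups were transfected cells at a single time. Safb, Safb2 and Sltm encode nuclear RNA-binding proteins that share a domain organisation. The RNA was polyadenylated, and the libraries kept strand.

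Total counts ranged from 35485865 to 53441129 reads in SAFB KD libraries and from 33323307 to 42595732 in control libraries. The siRNA targets averaged 46.6 ± 2.01 CPM in SAFB KD cells and 93.7 ± 3.08 CPM in control cells for Safb, 30.01 ± 0.312 CPM in SAFB KD cells and 46.9 ± 1.79 CPM in control cells for Safb2 and 61.6 ± 0.515 CPM in SAFB KD cells and 100.2 ± 4.81 CPM in control cells for Sltm (SD, n = 3 each), so that RNA of all 3 targets remained. CPM is the count of a gene relative to the library size after scaling by TMM, which corrects for a few abundant genes. Of 8 fibroblast markers, all were detected and 7 fell, with summed levels of 18132 to 18615 CPM in SAFB KD cells against 19457 to 21428 CPM in control cells. The leukocyte markers with enough reads to test (Cd68 and Itgam) summed to 6.45 to 8.43 CPM in SAFB KD cells and 3.48 to 4.19 CPM in control cells, while Ptprc, Cd3e and Adgre1 had fewer than 10 reads over all libraries each. Cd68 made up nearly all of that sum and rose. Endothelial markers (3) summed to 9.32 to 10.3 CPM in SAFB KD cells and 7.89 to 8.32 CPM in control cells, with Pecam1 higher and Kdr at 0 reads. Epithelial markers (4, with Epcam and Krt18 at 0 reads) and the germ cell marker Sycp3 reached at most 0.455 and 0.277 CPM in any library, and the germ cell markers Ddx4 and Dazl had 1 and 3 reads in all. What part these markers have in the values of the proteasome genes was not tested. The controls were spread along the second principal component, which held 5.78% of the variance. Control 1, 2 and 3 lay at 8.74, 2.50 and -11.1.

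Most proteasome genes were modestly higher after the knockdown. Of the 46 genes, 33 rose, 3 fell (Psma6, Psmg4 and Psme4) and 10 did not pass the test, by the quasi-likelihood test of edgeR with p-values adjusted over all 19452 genes. Among all genes tested, 21.4% were called higher and 20.1% were called lower. The median log2 fold change was 0.18 over the 46 genes and 0.01 over all genes tested. The changes were small, and 45 of the 46 genes lay within 0.5 of zero on the log2 scale. In 37 of the 46 genes the groups did not overlap, 34 of them higher in SAFB KD cells, where 49.0% of all genes tested had groups that did not overlap.

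**Figure D1:**
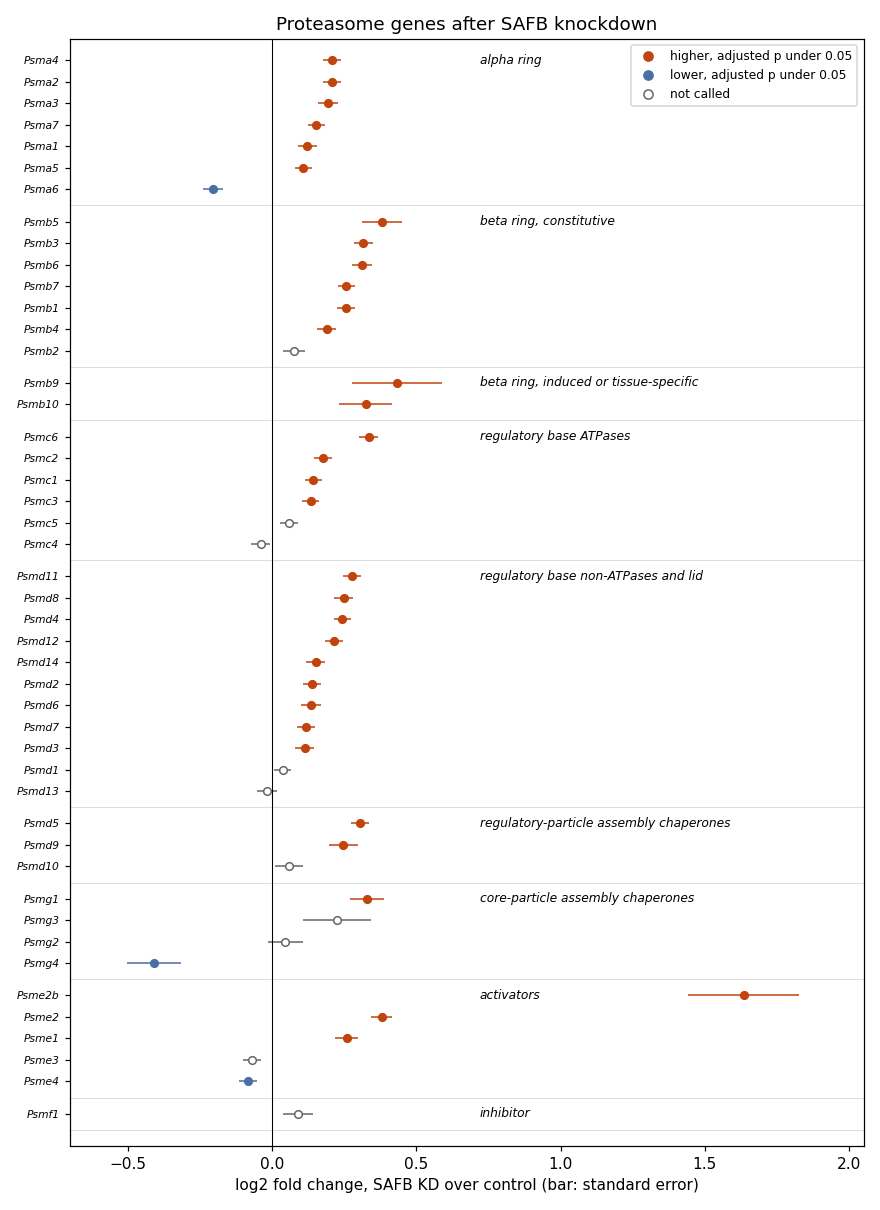
Log2 fold change of each of the 46 proteasome genes (horizontal axis, SAFB KD over control, bars: standard error), grouped by class and ordered by size within each class. Filled orange points rose, filled blue points fell, and open points did not pass the test; Psme2b at 1.63 stands far to the right of the other members, of which the highest is Psmb9 at 0.43.

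Proteasome genes are well expressed, and such genes pass the test more readily, so the same shares were taken over expressed genes. Of 8901 protein-coding genes averaging 10 CPM or more, 35.9% were called higher and 29.9% were called lower, and their median log2 fold change was 0.02. The 41 proteasome genes at that level had 30 called higher and 2 called lower, with a median of 0.15. Between 0.1 and 0.4 on the log2 scale lay 13, 10 and 7 of these 41 genes in successive steps of 0.1, or 31.7%, 24.4% and 17.1%, against 14.0%, 10.4% and 6.21% of the 8901 genes.

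**Figure D2:**
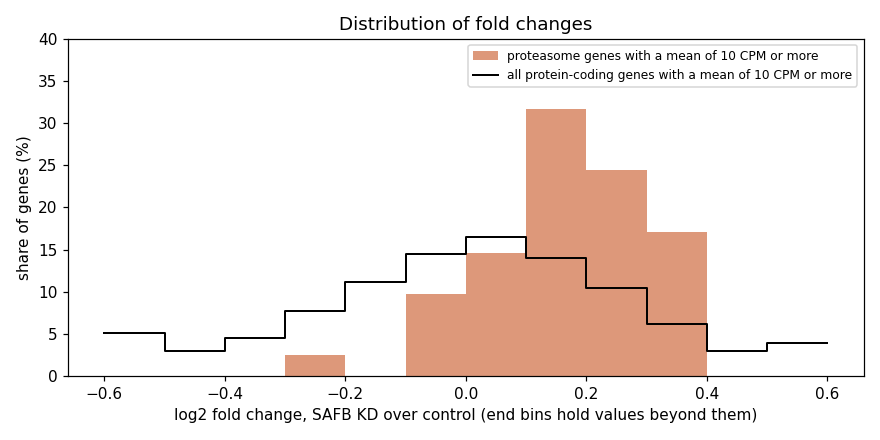
Share of genes (vertical axis, percent) by log2 fold change of SAFB KD over control (horizontal axis, steps of 0.1). Orange bars are the 41 proteasome genes that averaged 10 CPM or more and the black line is all 8901 protein-coding genes at that level; the bars pile up between 0.1 and 0.4, to the right of the peak of the line.

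Gene length moved with the fold change in these libraries. When the 8901 genes were split in 3 equal bins by genomic span, at 16.1 and 44.1 kb, the median log2 fold change was 0.09 in the short bin, 0.03 in the middle bin and -0.04 in the long bin, and 44.7%, 35.6% and 27.3% were called higher. Proteasome genes were shorter than most, with a median span of 12.1 kb against 26.9 kb over the 8901 genes. Of the proteasome genes in the short bin, 18 of 23 rose, with a median of 0.14. In the middle bin 7 of 11 rose and in the long bin 5 of 7 rose, with medians of 0.18 and 0.21. The median of the members was above that of all genes within each bin.

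The rise was seen in each knockdown library. The median over the 46 genes of log2 CPM relative to the control mean was 0.19, 0.15 and 0.18 in SAFB KD 1, 2 and 3, and -0.0023 to 0.0071 in the control libraries. The 46 genes together took 7883 ± 119 CPM in SAFB KD cells and 7068 ± 28.6 CPM in control cells (SD, n = 3 each), which is 11.5% more in SAFB KD cells, and the groups did not overlap. In bulk RNA, more cells with high levels and more RNA per cell cannot be told apart.

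The alpha ring, which forms the gate and on which the beta ring is laid down during assembly, had 6 of its 7 genes higher and 1 lower, with a median log2 fold change of 0.15. Psma4 had 295, 291 and 301 CPM in SAFB KD cells and 249, 256 and 262 CPM in control cells (log2 fold change 0.21, SE 0.030, adjusted p = 2.74e-07). Psma2 had 180.0, 179.8 and 189 CPM in SAFB KD cells and 159, 157 and 159.9 CPM in control cells (log2 fold change 0.21, SE 0.031, adjusted p = 6.11e-07). Both genes were higher in every SAFB KD library than in any control library. Psma3, Psma7, Psma1 and Psma5 rose by 0.20, 0.15, 0.12 and 0.11 on the log2 scale, of which the call on Psma5 was lost with total count scaling (adjusted p = 0.0737).

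Psma6, whose product sits in the same ring, went against its class. It had 150.5, 142 and 158 CPM in SAFB KD cells and 169, 174 and 176 CPM in control cells (log2 fold change -0.20, SE 0.035, adjusted p = 4.45e-06), and it was lower in every SAFB KD library than in any control library. The gene lies on chromosome 12, 55384222 to 55418454, plus strand (GRCm38). Per kb of exon, the level of Psma6 was 122 CPM per kb in SAFB KD cells and 140.2 in control cells. It was the most abundant alpha gene per kb in control cells, whereas Psma5 was the most abundant in SAFB KD cells at 142 CPM per kb. The summed level of the alpha genes was still higher, 1568 ± 38.3 CPM in SAFB KD cells and 1436 ± 31.6 CPM in control cells (SD, n = 3 each), and its groups did not overlap.

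The constitutive beta ring had 6 of 7 genes higher and none lower, with a median of 0.26. Its catalytic members are Psmb6, Psmb7 and Psmb5, which cut after acidic, basic and bulky hydrophobic residues. Psmb6 had 156, 159 and 167 CPM in SAFB KD cells and 134, 129 and 126 CPM in control cells (log2 fold change 0.31, SE 0.033, adjusted p = 3.16e-10). Psmb7 had 286, 289 and 296 CPM in SAFB KD cells and 239.5, 245 and 244 CPM in control cells (log2 fold change 0.26, SE 0.030, adjusted p = 2.09e-09). Psmb5 had 16.9, 17.2 and 19.9 CPM in SAFB KD cells and 13.8, 13.9 and 14.02 CPM in control cells (log2 fold change 0.38, SE 0.069, adjusted p = 1.26e-05). In all 3 genes the lowest SAFB KD library was above the highest control library.

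The other beta subunits have no active site and complete the ring. Psmb3 had 218, 211 and 217 CPM in SAFB KD cells and 183, 170.0 and 165 CPM in control cells (log2 fold change 0.32, SE 0.034, adjusted p = 2.53e-10), again without overlap. Psmb1 and Psmb4 rose by 0.26 and 0.19 on the log2 scale. Psmb2 did not pass the test at 0.08 (adjusted p = 0.112), although it did without SAFB KD 1 (0.12, adjusted p = 0.00795) and without control 1 (0.10, adjusted p = 0.0422). Together the 7 genes had 1413 ± 25.4 CPM in SAFB KD cells and 1191 ± 15.6 CPM in control cells (SD, n = 3 each), 18.6% more in SAFB KD cells, against 9.19% more for the alpha genes; the difference between the rings was not tested.

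**Figure D3:**
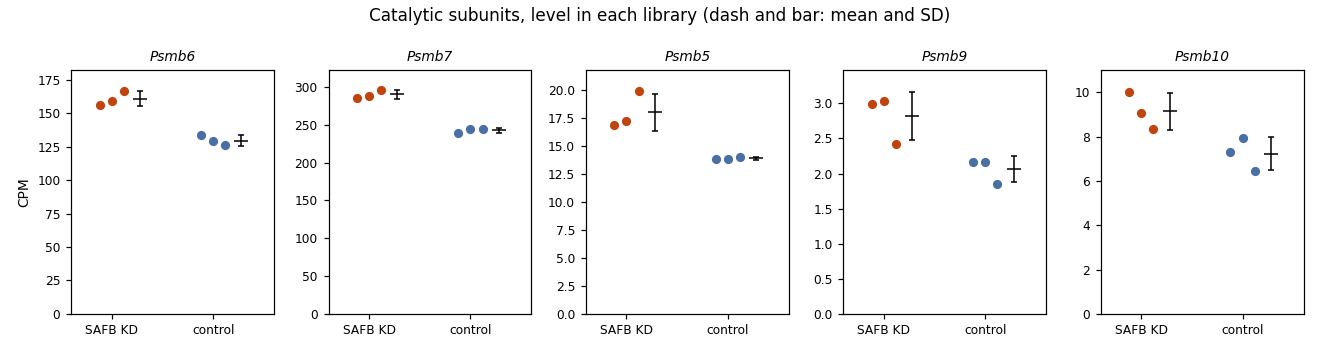
Level of the 5 catalytic subunit genes in each library (vertical axis, CPM from 0; coloured points: libraries; dash and bar: mean and SD of 3 libraries), SAFB KD in orange and control in blue. In every panel the 3 SAFB KD libraries sit above the 3 control libraries; the axes show how far Psmb9 and Psmb10 lie below Psmb6 and Psmb7.

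The induced subunits were scarce. Psmb9, which replaces Psmb6 in the immunoproteasome, had 2.98, 3.04 and 2.42 CPM in SAFB KD cells and 2.17, 2.17 and 1.85 CPM in control cells (log2 fold change 0.43, SE 0.156, adjusted p = 0.0229). This call rested on few reads, 607 in all, and it was lost with DESeq2 (adjusted p = 0.0662), with limma-voom (0.0522), without SAFB KD 1 (0.0725), without SAFB KD 2 (0.110) and without control 3 (0.0910), with a log2 fold change of 0.35 to 0.54 throughout. Psmb10, which replaces Psmb7, had 10.03, 9.05 and 8.35 CPM in SAFB KD cells and 7.31, 7.93 and 6.46 CPM in control cells (log2 fold change 0.32, SE 0.093, adjusted p = 0.00416), without overlap between the groups. Psmb8, which replaces Psmb5, had only 2 reads over the 6 libraries and was not tested.

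The exchange of subunits was followed as the ratio of an induced gene to the constitutive gene it replaces, per kb of exon. For each 100 units of Psmb6 there were 0.890 units of Psmb9 in SAFB KD cells and 0.811 in control cells. The log2 ratio was -6.68, -6.68 and -7.08 in SAFB KD libraries and -6.91, -6.86 and -7.06 in control libraries, a difference of 0.14 within the spread of the libraries (exact permutation test, 2-sided, p = 0.40, adjusted p = 0.50 over 2 ratios, n = 3 each). For each 100 units of Psmb7 there were 6.30 units of Psmb10 in SAFB KD cells and 5.95 in control cells. Here the log2 ratio was -3.83, -3.99 and -4.14 in SAFB KD libraries and -4.03, -3.95 and -4.24 in control libraries, a difference of 0.08 (exact permutation test, 2-sided, p = 0.50, adjusted p = 0.50). With 3 libraries a group, the smallest p this test can give is 0.10. In both pairs the groups overlapped, the design could not pass the threshold, and these p-values do not show that the ratio was the same in both groups. The induced genes stayed at a small share of their partners.

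At the protein level the exchangeable subunits are related but distinct. Translated from the GENCODE coding sequences, Psmb9 and Psmb6 shared 61.2% of 219 aligned residues, Psmb10 and Psmb7 shared 57.9% of 273, and Psmb8 and Psmb5 shared 65.2% of 253. The tissue-specific members were absent or nearly so. Psmb11, the beta subunit of thymic cortical epithelium, had 1 read. Psma8, an alpha subunit of testis that shares 83.9% of 248 aligned residues with Psma7, had 0 of 248624025 reads, which allows up to 0.0121 CPM (3 reads, counting error only).

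The ATPases of the regulatory particle form the ring that unfolds the substrate and threads it into the core. Of 6 genes, 4 rose and none fell, with a median of 0.14. Psmc6 had 324, 333 and 342 CPM in SAFB KD cells and 249, 263 and 281 CPM in control cells (log2 fold change 0.33, SE 0.034, adjusted p = 9.14e-11). Psmc2 had 234, 223 and 227 CPM in SAFB KD cells and 202, 200.5 and 203 CPM in control cells (log2 fold change 0.18, SE 0.031, adjusted p = 6.14e-06). Psmc1 had 206, 198 and 207 CPM in SAFB KD cells and 182, 184 and 188 CPM in control cells (log2 fold change 0.14, SE 0.031, adjusted p = 0.000178). The groups did not overlap in any of these 3 genes, and Psmc3 rose by 0.13 on the log2 scale. Psmc5 at 0.06 (adjusted p = 0.119) and Psmc4 at -0.04 (adjusted p = 0.380) did not pass the test, although these subunits stand in the same ring.

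The 11 remaining subunits of the regulatory particle are the scaffolds and ubiquitin receptor of its base and the subunits of its lid. Of these, 9 rose and none fell, with a median of 0.14. Psmd11, a lid subunit that clamps the lid to the core, had 259.7, 258 and 264 CPM in SAFB KD cells and 221, 209 and 216 CPM in control cells (log2 fold change 0.28, SE 0.031, adjusted p = 7.93e-10). Psmd8, another lid subunit, had 148, 157 and 155 CPM in SAFB KD cells and 129.9, 129 and 129 CPM in control cells (log2 fold change 0.25, SE 0.032, adjusted p = 2.87e-08). Psmd4, the ubiquitin receptor, had 191, 189 and 190.0 CPM in SAFB KD cells and 158, 162 and 161 CPM in control cells (log2 fold change 0.24, SE 0.030, adjusted p = 1.12e-08). In each of the 3 genes all SAFB KD libraries were above all control libraries.

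Other members of this class changed less. Psmd12, Psmd14, Psmd2, Psmd6, Psmd7 and Psmd3 rose by 0.21, 0.15, 0.14, 0.13, 0.12 and 0.11 on the log2 scale; Psmd14 is the enzyme that cuts ubiquitin off the substrate, and Psmd2 is a large scaffold of the base. The call on Psmd3 was lost with total count scaling (adjusted p = 0.0787), without SAFB KD 3 (0.0549), without control 2 (0.0637) and without control 3 (0.0823). Psmd1, the other large scaffold, did not pass the test at 0.04 (adjusted p = 0.339), and neither did Psmd13 at -0.02 (adjusted p = 0.735).

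Among the chaperones that assemble the ATPase ring, Psmd5 and Psmd9 rose and Psmd10 did not pass the test. Psmd5 had 137, 133 and 139 CPM in SAFB KD cells and 109, 111 and 111 CPM in control cells (log2 fold change 0.31, SE 0.033, adjusted p = 3.26e-10). Psmd9 had 33.8, 36.2 and 37.3 CPM in SAFB KD cells and 31.00, 28.7 and 30.9 CPM in control cells (log2 fold change 0.25, SE 0.052, adjusted p = 0.000111). Both genes separated the groups. Psmd10, the oncoprotein gankyrin, had 33.8, 35.4 and 35.7 CPM in SAFB KD cells and 34.5, 33.1 and 33.2 CPM in control cells (log2 fold change 0.06, SE 0.049, adjusted p = 0.376), and its groups overlapped.

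The chaperones of the core particle split. Psmg1, which with Psmg2 brings together the alpha ring, had 22.6, 23.2 and 21.7 CPM in SAFB KD cells and 17.98, 17.3 and 18.5 CPM in control cells (log2 fold change 0.33, SE 0.060, adjusted p = 1.44e-05). Its partner Psmg2 had 21.4, 23.9 and 24.2 CPM in SAFB KD cells and 23.5, 22.96 and 20.9 CPM in control cells (log2 fold change 0.05, SE 0.060, adjusted p = 0.594), with groups that overlapped. Only Psmg1 of this pair passed the test; the difference between the genes was not tested.

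Psmg3 and Psmg4 encode the other pair of chaperones, which also act on the alpha ring. Psmg4 had 6.00, 6.06 and 6.14 CPM in SAFB KD cells and 7.42, 8.52 and 8.28 CPM in control cells (log2 fold change -0.41, SE 0.093, adjusted p = 0.000366) and was lower in every SAFB KD library than in any control library. It lies on chromosome 13, 34162964 to 34178173, plus strand, and at -0.41 it had the largest fall of the 46 genes. Psmg3 had 5.49, 5.34 and 4.92 CPM in SAFB KD cells and 3.89, 4.23 and 5.42 CPM in control cells (log2 fold change 0.22, SE 0.118, adjusted p = 0.131). Its control 3 value stood above the other controls and inside the SAFB KD range, and without control 3 the gene was called higher (0.35, adjusted p = 0.0189). Psmg3 and Psmg4 rest on 1204 and 1740 reads in all.

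The activators replace the regulatory particle at the end of the barrel. Psme1 and Psme2 encode the mixed ring that is inducible by interferon gamma. Psme1 had 60.1, 59.7 and 60.1 CPM in SAFB KD cells and 48.6, 50.3 and 51.6 CPM in control cells (log2 fold change 0.26, SE 0.040, adjusted p = 1.11e-06). Psme2 had 90.9, 89.2 and 87.8 CPM in SAFB KD cells and 70.3, 68.4 and 67.04 CPM in control cells (log2 fold change 0.38, SE 0.036, adjusted p = 1.33e-11). Both rose without overlap between the groups. The 2 genes lie close together on chromosome 14 and point towards each other, Psme1 at 55578123 to 55581529 on the plus strand and Psme2 at 55587441 to 55591113 on the minus strand.

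The activators of the nucleus did not rise. Psme3, which forms a ring of its own in the nucleus, had 185, 181 and 191 CPM in SAFB KD cells and 197, 197 and 191 CPM in control cells (log2 fold change -0.07, SE 0.031, adjusted p = 0.0706). It did not pass the test in the main fit, with overlapping groups, but it was called lower in 6 of 14 alternatives, including DESeq2 (-0.08, adjusted p = 0.0393) and the fits without SAFB KD 3 (-0.09, adjusted p = 0.0397) and without control 3 (-0.10, adjusted p = 0.0120). Psme4, a large nuclear cap, had 228, 219 and 217 CPM in SAFB KD cells and 238, 229 and 236 CPM in control cells (log2 fold change -0.08, SE 0.031, adjusted p = 0.0291), and its groups did not overlap. This small fall was lost without SAFB KD 2 (-0.08, adjusted p = 0.101) and without SAFB KD 3 (-0.07, adjusted p = 0.142). Per kb of exon, Psme3 was at 63.02 CPM per kb in SAFB KD cells and 66.2 in control cells, and Psme2, the next activator, was at 50.6 CPM per kb in SAFB KD cells and 38.9 in control cells. The summed level of the activators differed little, 559 ± 7.81 CPM in SAFB KD cells and 549 ± 5.39 CPM in control cells (SD, n = 3 each), with overlapping groups.

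Psme2b showed by far the largest fold change of the members, from a low level. It had 3.18, 2.81 and 2.50 CPM in SAFB KD cells and 0.760, 1.03 and 0.923 CPM in control cells (log2 fold change 1.63, SE 0.193, adjusted p = 3.21e-09), that is 3.10-fold higher, from 470 reads over all libraries. It was the 1 member called beyond 2-fold, by a test against a log2 fold change of 1 (adjusted p = 0.0224), where 1.22% of all genes tested were called beyond 2-fold in either direction. The call beyond 2-fold was lost with DESeq2, with limma-voom, and without SAFB KD 1, SAFB KD 2 or control 1, while the call of a difference held in all 14 alternatives.

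Psme2b is a single-exon gene on chromosome 11, 48945354 to 48946190, minus strand (GRCm38), annotated as protein-coding, and Psme2 is its near-identical relative with introns. Its coding sequence of 717 bases differed from that of Psme2 at 5 bases, the first at coding position 312, and the proteins translated from both were identical over all 239 residues. The stretch from coding position 484 to 543 is shown because it holds 3 of the 5 bases by which the coding sequences differ. The differing bases are in capitals (GENCODE transcripts, build GRCm38).
Psme2b: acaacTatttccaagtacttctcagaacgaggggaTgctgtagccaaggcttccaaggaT
Psme2: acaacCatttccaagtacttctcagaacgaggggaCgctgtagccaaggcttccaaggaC
Over the first 311 coding bases the sequences are the same, so the bases of a read from there do not tell the 2 genes apart. How the reads of that stretch were placed was not measured.

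Psme2b shares its place with other genes. It lies within the span of the gene Gm12185 on the same strand, and its first 41 bases overlap the last exon of another gene on the same strand, 9930111J21Rik1. This neighbour had 3.72, 4.27 and 4.12 CPM in SAFB KD cells and 0.599, 0.418 and 0.566 CPM in control cells (log2 fold change 2.93, SE 0.190, adjusted p = 3.25e-16). Gm12185 itself had 0.0568, 0.162 and 0.114 CPM in SAFB KD cells and 0.323, 0.222 and 0.298 CPM in control cells, 48 reads in all, and did not pass the test (adjusted p = 0.0848). The rise of Psme2b thus stood beside a larger rise of the gene that ends at its start. Reads from transcripts that run on past the end of the neighbour would be counted for Psme2b, and their part in its value was not tested.

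**Figure D4:**
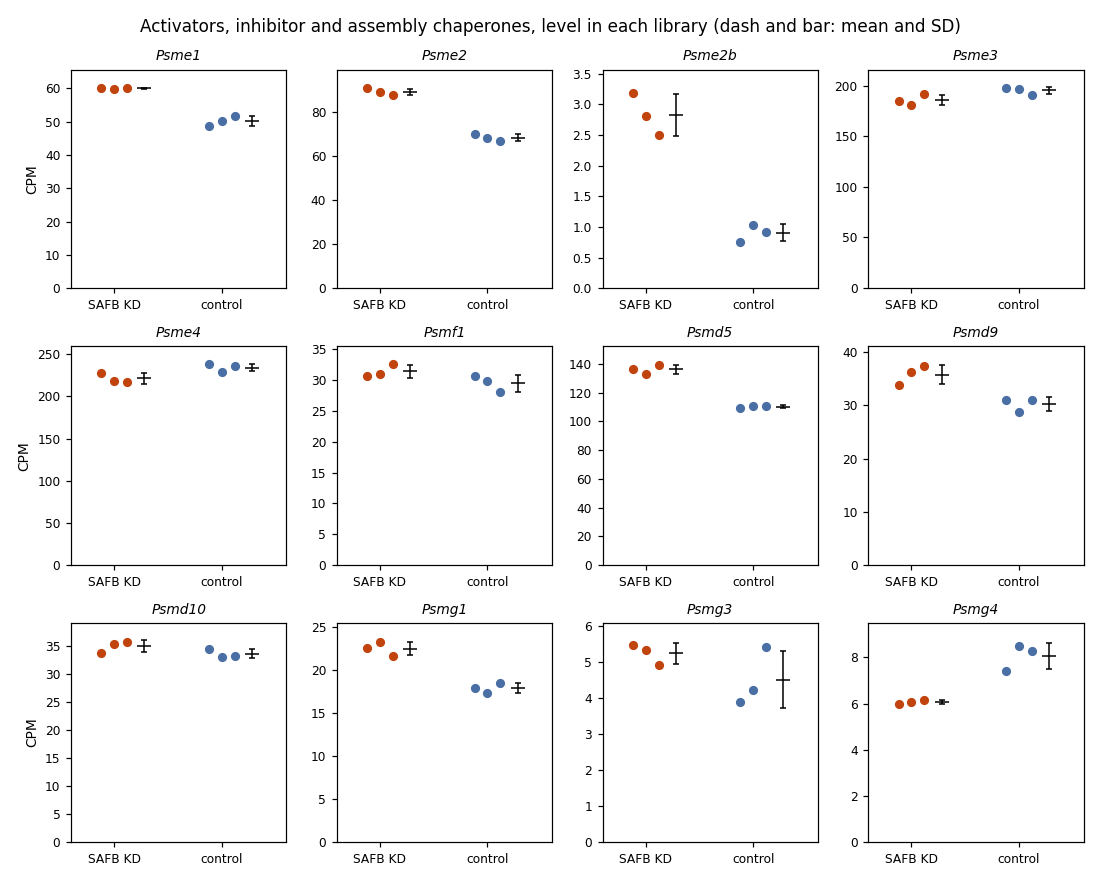
Level of the activators, the inhibitor and 6 of the 7 assembly chaperones in each library (vertical axis, CPM from 0; coloured points: libraries; dash and bar: mean and SD of 3 libraries), SAFB KD in orange and control in blue. Psme1, Psme2, Psme2b, Psmd5, Psmd9 and Psmg1 sit higher in SAFB KD cells, Psme4 and Psmg4 sit lower, and the groups of Psme3, Psmf1, Psmd10 and Psmg3 overlap.

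Psmf1 encodes an inhibitor of the core particle in the test tube. It had 30.7, 30.9 and 32.6 CPM in SAFB KD cells and 30.7, 29.8 and 28.01 CPM in control cells (log2 fold change 0.09, SE 0.052, adjusted p = 0.176), and its groups overlapped.

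Subunits of 1 particle are needed in equal numbers, but their RNA levels were not equal. Levels are compared here as CPM per kb of merged exon length. The constitutive core and regulatory genes lay between 20.04 (Psmb5) and 176 CPM per kb (Psmc5) in SAFB KD cells, and between 15.5 and 169 in control cells, with the same genes at both ends. The level of Psmb5 is uncertain, as given below. The next lowest was Psmd13, at 32.8 CPM per kb in SAFB KD cells and 33.1 in control cells. The alpha ring had a median of 88.5 CPM per kb in SAFB KD cells and 79.5 in control cells, close to the medians of the constitutive beta ring (85.97 and 71.00) and of the ATPases (90.9 and 77.2). The non-ATPase and lid genes had lower medians, 45.2 in SAFB KD cells and 42.2 in control cells. Merged exon length counts exons of every annotated isoform, so it understates genes with long, rarely used exons.

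By class median, the assembly chaperones were at lower levels per kb than the subunits they assemble. Pomp, a maturation factor of the core outside these classes, was at 28.3 CPM per kb in SAFB KD cells and 27.05 in control cells. That was above the beta subunit Psmb5, at 20.04 CPM per kb in SAFB KD cells and 15.5 in control cells. The level of Psmb5 is uncertain, and Pomp was below every other constitutive core and regulatory gene. The median of the core-particle chaperones was 12.1 CPM per kb in SAFB KD cells and 13.1 in control cells. Those of the regulatory particle had 18.8 and 15.3. The lowest of all members was Psmb9, with 0.769 CPM per kb in SAFB KD cells and 0.563 in control cells, and the inhibitor Psmf1 was at 4.88 CPM per kb in SAFB KD cells and 4.58 in control cells.

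**Figure D5:**
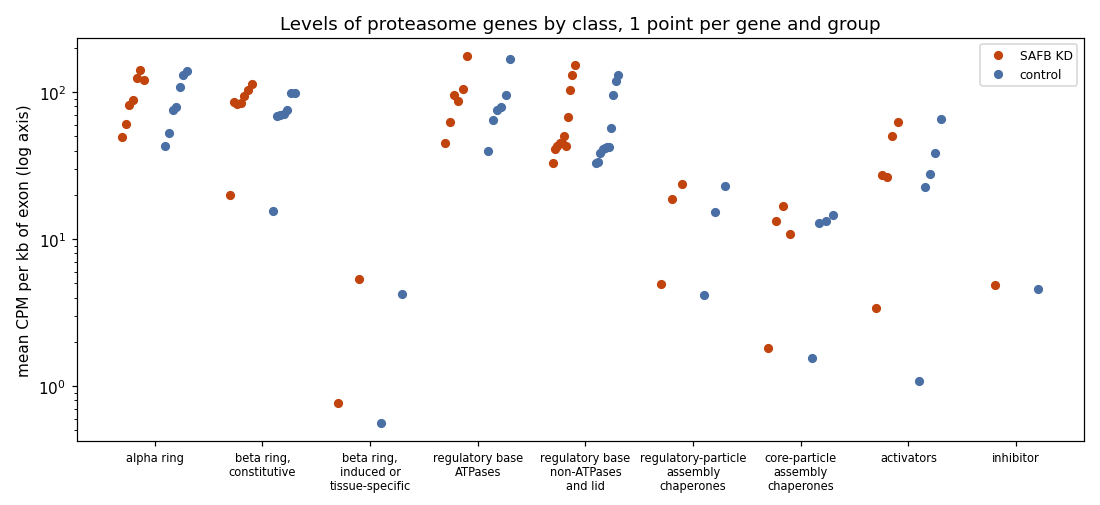
Mean level of each of the 46 genes per kb of exon (vertical axis, CPM per kb, log axis) by class, SAFB KD in orange to the left and control in blue to the right, 1 point per gene and group. Core and regulatory subunits sit together near the top, and Psmb5 is the low point of the constitutive beta ring at 20.04 in SAFB KD cells and 15.5 in control cells. Chaperones, induced subunits and the inhibitor lie below the constitutive core and regulatory subunits other than Psmb5.

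Psmb5 was low for a constitutive subunit, at 20.04 CPM per kb in SAFB KD cells and 15.5 in control cells, from 4015 reads in all. Psmb6 was at 85.97 CPM per kb in SAFB KD cells and 69.2 in control cells, and Psmb7 at 84.9 CPM per kb in SAFB KD cells and 71.00 in control cells. It has a near-identical processed pseudogene, Gm3375 (chromosome 7, 3181093 to 3181888, plus strand), which matched the Psmb5 coding sequence at 99.0% of 792 aligned bases with 8 substitutions. Gm3375 was itself detected, with 4608 reads, and rose with a log2 fold change of 0.30 (SE 0.06, adjusted p = 0.000187), beside 0.38 for Psmb5. Its longest stretch identical to Psmb5 was 194 bases. How reads from such stretches were divided between the 2 genes or left out was not measured, so the level and fold change of Psmb5 are uncertain.

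Copies of proteasome genes were common, but few were as close to their gene as Gm3375 is to Psmb5. A search of pseudogene transcripts, with Psme2b, against coding transcripts gave 56 copies of 24 proteasome genes, of which 25 had no read and 19 had enough reads to test. Psmb3 had the most, 8 copies. The closest copy matched Psmc3 at 67.3% of aligned bases, Psmb4 at 76.8%, Psmb7 at 88.7% and Psmd11 at 98.0%. Of the 19, 3 were called higher (Gm3375, Psme2b and Gm6542) and none lower, where 21.4% and 20.1% of all genes tested were called higher and lower. Gm6542, a copy of Psma4 on chromosome 18 within the gene Ankhd1, had 617 reads and a log2 fold change of 0.41 (SE 0.16, adjusted p = 0.033); this call was lost in 6 of 14 alternatives (adjusted p from 0.0528 to 0.238), among them the fits without SAFB KD 1, SAFB KD 3, control 1 or control 3. Its host Ankhd1 had -0.12 (adjusted p = 0.00294). Gm13835 matches Psma3 without a difference over 685 bases and had 1673 reads, with a log2 fold change of 0.12 (adjusted p = 0.338).

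Some members also share their place with other genes. AW209491 lies within Psma2 on the same strand and had 0.45 (adjusted p = 1.58e-07), where Psma2 had 0.21. Psmc3 overlaps Slc39a13 on the opposite strand, which fell by 0.21 on the log2 scale (adjusted p = 0.000463) while Psmc3 rose by 0.13. Counting by strand would keep the reads of such opposite genes apart, but that the counts used here are stranded was inferred.

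Promoters of the members were read from RefSeq (GRCm38.p6, 250 bases before to 50 after the gene start), which held 41 of the 49 genes. The core of the antioxidant response element, TGACNNNGC, is the kind of site that NRF1 and NRF2 bind. On either strand it was present in 6 of these 41 genes (14.6%), against 14.0% of all 27025 genes with a promoter. Among tested genes the shares were 15.4% of proteasome genes and 16.6% of all genes with a promoter. The letters were thus about as frequent in proteasome genes as elsewhere in windows of this length. The genes were Psmb5, Psmb6, Psmc6, Psmd12, Psmd9 and Psme4, of which the first 5 rose and Psme4 fell. Matches that began within 60 bases before the start were in Psmb5, Psmb6, Psmd9 and Psme4. In Psmd9 and Psme4 they began 31 and 7 bases before it. The windows of both catalytic subunit genes are shown. The match is in capitals, and each window reads towards the gene.
Psmb5: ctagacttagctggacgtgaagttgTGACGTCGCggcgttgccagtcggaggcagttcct
Psmb6: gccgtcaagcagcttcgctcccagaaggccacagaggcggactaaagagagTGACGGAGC
They lie at chr14:54618008-54618067 on the minus strand and chr11:70525297-70525356 on the plus strand, and the matches begin 47 and 9 bases before the start.

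The CCAAT box, bound by NF-Y, was in 14 of the 41 genes (34.1%), against 41.1% of all genes with a promoter. By class it was in 5 of 7 alpha ring genes with a promoter, namely Psma1, Psma2, Psma3, Psma6 and Psma7. Psma6, the alpha gene that fell, had matches as did 4 of the alpha genes that rose. A match of letters is a description and not a bound site.

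Other proteins of the particle were taken from a list. Of 11 tested, 8 rose, 1 fell and 2 did not pass the test, with a median log2 fold change of 0.13. Of the 8901 expressed protein-coding genes, 35.9% were called higher and 29.9% lower. Uchl5, a deubiquitinase that docks on the regulatory particle, had 72.3 ± 1.56 CPM in SAFB KD cells and 54.5 ± 4.66 CPM in control cells (0.41 ± 0.044, adjusted p = 4.17e-10). Adrm1, the ubiquitin receptor on which Uchl5 docks, had 81.5 ± 3.65 CPM in SAFB KD cells and 72.2 ± 1.77 CPM in control cells (0.17 ± 0.038, adjusted p = 0.000197). Zfand2a rose (0.29 ± 0.050, adjusted p = 4.82e-06), as did Txnl1, a thioredoxin-like protein bound to the regulatory particle (0.16 ± 0.032, adjusted p = 5.03e-05). Zfand5, which stimulates the proteasome, fell (-0.18 ± 0.032, adjusted p = 1.22e-05). Pomp, the maturation factor on which the beta ring is built, had 147 ± 1.82 CPM in SAFB KD cells and 141 ± 5.55 CPM in control cells and did not pass the test (0.06 ± 0.033, adjusted p = 0.124).

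NRF1 and the factors that process it were a list of 10 with NRF2 and NF-Y, of which 2 rose, 4 fell and 4 did not pass the test, with a median of -0.04. Of the 8901 expressed genes 35.9% were higher and 29.9% lower. The gene of NRF1 itself, Nfe2l1, had 493, 536 and 516 CPM in SAFB KD cells and 359.9, 346 and 351 CPM in control cells (log2 fold change 0.55, SE 0.031, adjusted p = 6.05e-18). Its log2 fold change was above that of each proteasome gene other than Psme2b, and its groups did not overlap. NRF2, encoded by Nfe2l2, had 130.5 ± 2.83 CPM in SAFB KD cells and 117 ± 5.37 CPM in control cells (0.15 ± 0.035, adjusted p = 0.000312). The genes that fell were Vcp, which pulls NRF1 out of the endoplasmic reticulum (-0.13 ± 0.030, adjusted p = 0.000530), Nfyc (-0.19 ± 0.052, adjusted p = 0.00305), Nfya (-0.12 ± 0.035, adjusted p = 0.00549) and Syvn1, a ubiquitin ligase of that membrane (-0.13 ± 0.051, adjusted p = 0.0369). The call on Syvn1 was lost in 5 of 14 alternatives (adjusted p from 0.0514 to 0.146), among them the fits without SAFB KD 2, SAFB KD 3, control 1 or control 2. NRF1 is made active by cleavage of its protein, which was not measured.

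Ubiquitin genes, activating enzymes and shuttle factors numbered 16, of which 8 rose, 3 fell and 5 did not pass the test, with a median of 0.09, against 35.9% higher and 29.9% lower among the 8901 expressed genes. Sqstm1, an autophagy receptor that binds ubiquitin chains, had 351 ± 1.90 CPM in SAFB KD cells and 261 ± 5.22 CPM in control cells (0.43 ± 0.030, adjusted p = 2.40e-15). Rad23b, which carries ubiquitinated proteins to the proteasome, had 827 ± 9.98 CPM in SAFB KD cells and 623 ± 18.5 CPM in control cells (0.41 ± 0.029, adjusted p = 3.98e-15). Rps27a, a fusion of ubiquitin and a ribosomal protein, rose (0.26 ± 0.028, adjusted p = 4.01e-10). Ubqln2, another shuttle, fell, with 89.5 ± 4.42 CPM in SAFB KD cells and 117 ± 9.62 CPM in control cells (-0.39 ± 0.042, adjusted p = 3.02e-10). Ubb, a gene for a chain of ubiquitin, rose (0.12 ± 0.030, adjusted p = 0.000923).

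Antigen processing and interferon signalling are the setting in which Psmb8 to Psmb10, Psme1 and Psme2 are known to be induced. Of 16 genes, 7 rose, 5 fell and 4 did not pass the test, with a median of -0.0001, against 35.9% higher and 29.9% lower among the 8901 expressed genes. H2-D1, a class I antigen-presenting molecule, had 326 ± 1.70 CPM in SAFB KD cells and 220.1 ± 0.0262 CPM in control cells (0.57 ± 0.029, adjusted p = 3.58e-19). B2m, its light chain, rose (0.20 ± 0.032, adjusted p = 1.82e-06), as did the transcription factor Irf1 (0.28 ± 0.043, adjusted p = 7.44e-07). Calr, a chaperone that loads peptide on class I molecules, fell, with 953 ± 17.9 CPM in SAFB KD cells and 1292 ± 36.5 CPM in control cells (-0.44 ± 0.028, adjusted p = 3.06e-16). Tap1, the peptide transporter next to Psmb9 on chromosome 17, rose (0.32 ± 0.071, adjusted p = 0.000245) and was chosen after its values were seen. Psmc3ip, the gene that shares only its name with the family, had 26.2, 25.8 and 25.5 CPM in SAFB KD cells and 21.3, 24.7 and 24.5 CPM in control cells and did not pass the test (0.14 ± 0.059, adjusted p = 0.0555).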

How the data were processed

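Reads were trimmed and aligned to GRCm38 by the authors with STAR 2.7.9a in repeated passes, and the deposited values were raw counts of reads per gene, 1 library per file. Per the methods these are reverse-stranded gene counts of the aligner. Such counts keep uniquely aligned reads of 1 gene, which the methods do not state for them. That the single column holds such counts was inferred. The processing notes also name mm10 and deepTools 3.5.1. Of 54532 identifiers, 54495 matched the GENCODE annotation of GRCm38 and 37 did not. Genes with under 10 reads over the 6 libraries were left out, which kept 19452.

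Counts were scaled by TMM and compared by the quasi-likelihood test of edgeR 4.0.16 (R 4.3.3) without covariates, with Benjamini-Hochberg adjustment over all genes and a threshold of 0.05. Changes beyond 2-fold were tested by glmTreat. The SE is the log2 fold change over the root of its F statistic, and errors on CPM are SD of 3 libraries. Alternatives were other scalings and filters, DESeq2 1.42.0, limma-voom (limma 3.58.1), a replicate block and leaving out each library. Copies were found with blastn 2.17.0+ (E at most 1e-20, at least 100 bases). Proteins were translated from GENCODE coding sequences and aligned with Biopython 1.88, in place of the RefSeq proteins planned.

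The members, gene lists and tests were chosen with earlier results of these data known. Named were the knockdown targets, the catalytic subunits, activators, inhibitor and chaperones, the 3 largest called changes of each other class, fixed members and up to 4 smallest adjusted p of each pathway list, and up to 5 called copies. Other members are given by range or where not called. Neighbouring genes were named with the members they overlap. Values of some single genes of the marker and pathway lists are not reported here.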

Additional observations from a re-analysis of the deposited data

How the results depend on the processing

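The direction of the family held throughout. Proteasome genes called higher numbered 31 to 33 in the 8 alternatives of scaling, filter, test and replicate block and 32 to 34 when 1 library was left out, and those called lower numbered 3 to 4 and 2 to 4. In every one of the 15 fits 30 genes were called higher, 2 lower (Psma6 and Psmg4) and 7 not at all. The median log2 fold change, 0.18, was 0.14 with total count scaling, and it was 0.15 to 0.20 with 1 library left out. The count beyond 2-fold, Psme2b alone, was 0 with DESeq2 and 0 with limma-voom, and 0 to 1 with 1 library left out. All tested genes called numbered 7213 to 8117, and 7183 to 7760 with 1 library left out. The difference in the log2 ratio of Psmb10 to Psmb7, 0.08, was -0.0002 to 0.1606 with 1 library left out, lowest without control 3, and that of Psmb9 to Psmb6, 0.14, was 0.07 to 0.27. Psmg2, not called, had -0.0129 to 0.0950, lowest without control 3 (adjusted p = 0.904).

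Same-numbered replicates did not deviate together (correlations 0.05, 0.01 and -0.001). The labels state no pairing, and correlations from so few libraries cannot show that the samples were unpaired. With the replicate block, 33 genes were called higher and 3 lower, with a median of 0.18.

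That the counts cover only reads placed uniquely was inferred, and how reads of Psmb5, Psme2b and other genes with copies were placed was not measured. Levels are relative to all RNA counted, protein and proteasome activity were not measured, and cells were taken at 1 time from 1 line. Members below 10 CPM (Psmb9, Psmb10, Psme2b, Psmg3 and Psmg4) rest on 470 to 2037 reads each.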
